A study of Homo sapiens with 18 samples.

Results

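Drug-tolerant persister (DTP) cells that had survived 8 days of 1 µM erlotinib held 1861 stretches of accessible chromatin that were called in no other library of the series. They were chosen from the peak lists themselves. Peaks of all 18 libraries on chromosomes 1 to 22 and X were merged wherever they shared at least 1 bp, which gave 79483 regions. A library held a region if any of its peaks lay in it, and a DTP-only region was held by all 3 DTP libraries (a, b and c) and by none of the other 15. DTP-only regions were thus 2.34% of all regions, and this percentage is fixed by the way they were selected.

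All libraries came from PC9, a widely used human cell line derived from a lung adenocarcinoma with an activating EGFR mutation, and each was an ATAC-seq peak list on the hg19 build. DTP cells were the unsorted survivors of the 8 days in erlotinib, and PC9 was the unsorted population given vehicle (DMSO). The other 12 libraries were ALDH-high and ALDH-low cells, sorted by Aldefluor staining, which reports aldehyde dehydrogenase (ALDH) activity, after 12 h of 1 µM erlotinib or of DMSO. Each group had 3 libraries, and nothing in the labels states that they were separate cultures. The spread between libraries may therefore be technical, and DTP cells differed from the sorted cells in both the length of treatment and the sorting. The 2 cannot be told apart.

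ATAC-seq marks DNA that a transposase can reach, which includes promoters, enhancers and other sites from which nucleosomes have been displaced. Erlotinib blocks the EGFR kinase on which PC9 depends. Most cells die under it, and the few that persist are known to do so reversibly and with an altered chromatin state, in which repression of LINE-1 retrotransposons has been a topic of study.

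The lists differed in length, which matters for a class defined by absence. DTP lists were the longest, with 42207 to 45244 deposited peaks, against 39397 to 41834 in PC9. Lists of sorted cells had 32586 to 40717 peaks after erlotinib and 26228 to 32824 under DMSO. The depth of sequencing is unknown, and absence from a list means only that no peak was called. Libraries of the same group shared between 0.638 and 0.730 of the regions held by either of a pair. Annotation and sequence of the hg19 build were not used here, so regions are given by position and cytogenetic band, and no sequence is shown.

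In the uncut lists, of which those of DTP were the longest, the DTP-only class was larger than the class built by the same rule for any other group. The classes of the other groups were not counted in lists of equal size, so the part of list length in this ranking was not tested. PC9 had 408 regions held by its 3 libraries alone (0.513% of all regions), ALDH-low cells 79 after erlotinib (0.0994%) and 1 under DMSO (0.00126%), and ALDH-high cells 23 after erlotinib (0.0289%) and 1 under DMSO (0.00126%). Each sorted group has a second sorted group given the same treatment, which DTP and PC9 have not. Of the 4446 regions gained in DTP over PC9 (held by 3 of 3 and 0 of 3 libraries, 6.75% of the 65904 regions called in either), the DTP-only regions made up 41.9%. A further 320 (7.2%) were open in all 6 erlotinib-treated sorted libraries and no sorted DMSO library. In 1550 (34.9%) between 1 and 5 sorted erlotinib libraries held the region and no sorted DMSO library did. Sorted libraries of both treatments held 638 (14.3%), and sorted DMSO libraries alone held 77 (1.73%).

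**Figure D1:**
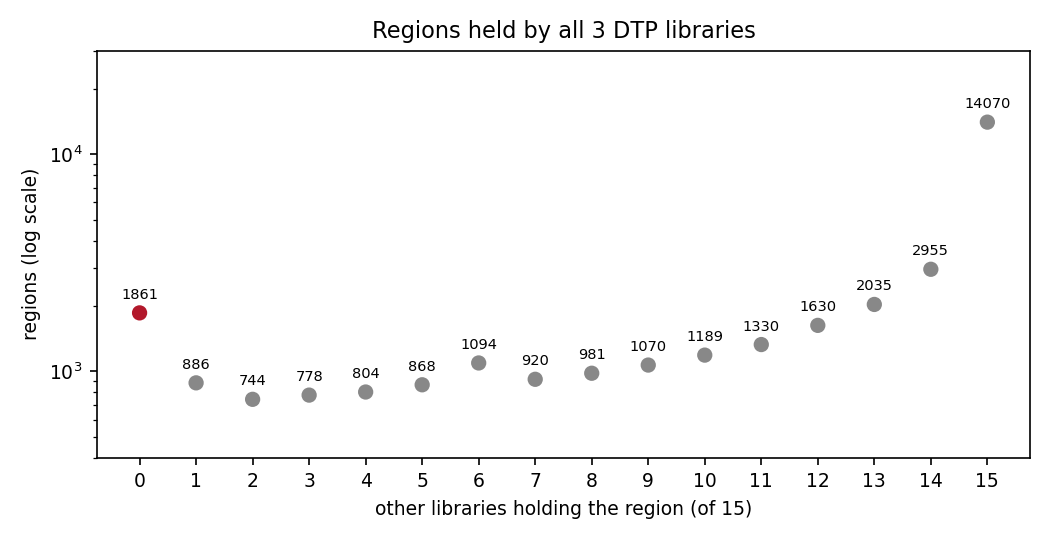
Number of regions held by all 3 DTP libraries (y axis, log scale) by how many of the other 15 libraries also held them (x axis). The red point marks the 1861 DTP-only regions, after which the count falls to 886 with 1 other library and is highest, at 14070, with all 15.

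The border of the class was not sharp. Just outside it lay 886 regions held by all 3 DTP libraries and exactly 1 other. The median score percentile in the weakest DTP library was 21.2 in DTP-only regions, against 23.2 in these 886. Here a score percentile is the rank of a peak's deposited score within its own list, from 0 at the calling floor to 100 at the top. In the single other list, the peak that kept a region out had a median percentile of 11.8, near that list's floor.

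The libraries differed in how many of these 886 regions they kept out. A sorted erlotinib library did so for 531 regions, a sorted DMSO library for 64 and a PC9 library for 291. The ALDH-high erlotinib libraries a, b and c accounted for 155, 61 and 151, with 40710, 34317 and 40600 peaks. The ALDH-low erlotinib libraries accounted for 88, 52 and 24, with 40670, 36458 and 32583 peaks. No DMSO library of sorted cells accounted for more than 17, and the PC9 libraries accounted for 89, 95 and 107. The part of list length in these numbers was not tested. On the other side of the border were 2063 regions held by exactly 2 DTP libraries and no other, with a median percentile of 11.4 in the weaker of the 2. The missing library was DTP a for 857 of these, DTP b for 609 and DTP c for 597, and DTP a had the shortest of the 3 lists.

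DTP-only regions were mostly weak peaks. Their median percentile was 34.2 in DTP library a, 37.2 in library b and 37.8 in library c, with median deposited scores of 108, 114 and 115. The lowest score in every list was 70. In the weakest of its 3 DTP libraries, the median region had a percentile of 21.2, with 3.76 as the lower and 52.4 as the upper decile. In 509 regions (27.4%) the weakest library placed the peak under percentile 10, and in 1644 (88.3%) under percentile 50. All 3 libraries placed it above their median in 217 regions (11.7%).

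Regions that DTP cells shared with all 6 erlotinib-treated sorted libraries stood higher. Their medians in DTP a, b and c were 46.0, 50.2 and 49.8, and 31.2% lay above the median of all 3 lists. All regions gained in DTP over PC9, which include the DTP-only ones, had medians of 37.4, 40.1 and 40.1, and regions held by all 18 libraries 80.6, 81.8 and 81.9. These scores come from the lists that defined the classes, so they are given with no test.

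**Figure D2:**
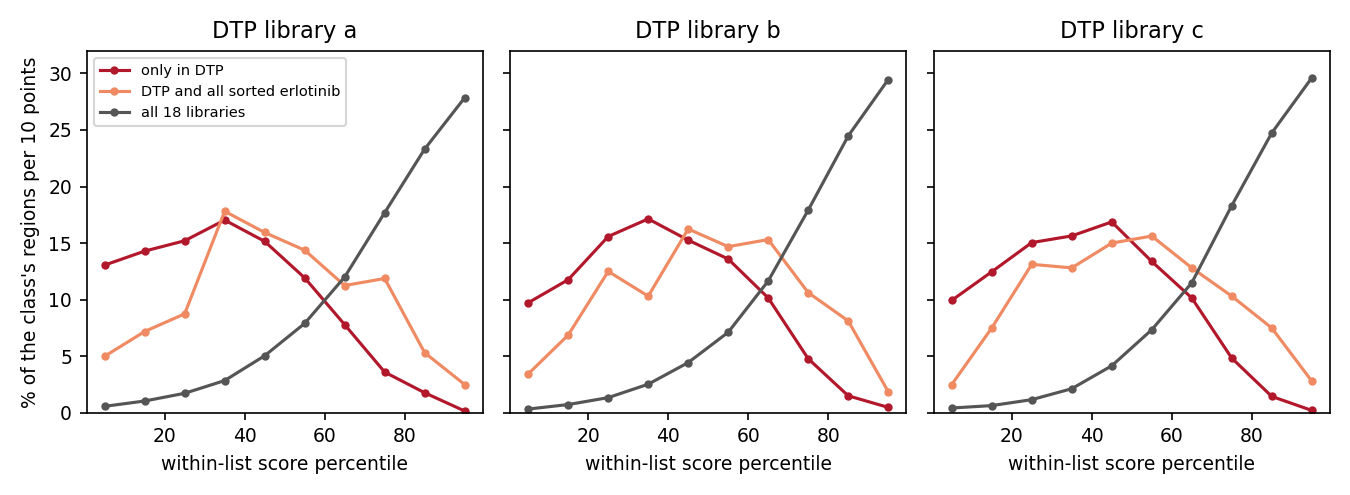
Distribution of the within-list score percentile (x axis, bins of 10 points) in each DTP library, as a percentage of the regions of a class (y axis). DTP-only regions (red, medians 34.2 to 37.8) lie left of regions shared with all sorted erlotinib libraries (orange, 46.0 to 50.2) and of regions held by all 18 libraries (grey, 80.6 to 81.9).

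The 3 DTP libraries placed the peaks at nearly the same positions, which the merging rule partly builds in. A region holds only DTP peaks that overlap one another in a chain, so these positions do not measure agreement between the libraries. In 1858 of the 1861 regions each DTP list had a single peak, and in all of these the 3 peaks shared bases. Their centres lay within a median of 102 bp of each other (upper decile 188.5 bp), and the 3 peaks had 66.6% of their joint span in common. Peak strength was less alike. Across the 1861 regions the Spearman correlation of percentiles was 0.460 between libraries a and b, 0.463 between a and c and 0.507 between b and c. Across all regions held by the 3 DTP libraries, which span a wider range of scores, it was 0.822 to 0.835. The points of each correlation share their libraries.

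DTP-only regions were narrow, as were the regions just outside the class. Their median width was 877 bp (quartiles 766 and 1003 bp), against 1199.5 bp in regions shared with all sorted erlotinib libraries and 1735 bp in regions held by all 18. It was 906 bp in the 886 regions with 1 other library and 724 bp in the 2063 held by 2 DTP libraries alone. Widths were not compared at equal peak score. A merged region grows with the number of lists that contribute to it, so within single lists the peak width is the closer comparison. Peaks of DTP-only regions were 735, 715 and 709 bp wide (medians) in DTP a, b and c, against 885, 841 and 842 bp over all peaks of those lists. In all, the 1861 regions covered 1.68 Mb, and their peaks were 4.41%, 4.15% and 4.11% of the 3 DTP lists.

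A few DTP-only regions were among the strongest peaks of the DTP lists. The strongest in its weakest library was at 2p14 (chromosome 2, 67066582 to 67067921), with scores of 409.7, 487 and 448 in DTP a, b and c, equal to percentiles 97.4, 98.5 and 97.6. The nearest peak in any of the other 15 lists was 215 kb away, and the nearest region held by all 18 libraries 343 kb away. The second was at 10q21.2 (chromosome 10, 64343517 to 64344912), with percentiles of 97.1, 99.3 and 99.3. These 2 regions alone ranked above percentile 90 in all 3 DTP lists, and both were absent from the lists of PC9 and of all sorted cells.

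After them the ranks fell off. The region at 11q12.1 (chromosome 11, 58506852 to 58508421) had percentiles of 88.5, 90.7 and 90.7, and that at 2q36.1 (chromosome 2, 224887576 to 224888630) had 86.4, 92.4 and 92.1. The region at 9q22.32 (chromosome 9, 96974115 to 96975186) had 88.8, 86.6 and 85.3. It was the only one of the 20 highest-ranking regions with a foreign peak within 1 kb, at 0.519 kb in ALDH-high erlotinib library b. The region at 8q21.3 (chromosome 8, 90163243 to 90164490) had percentiles of 83.2, 85.5 and 89.7.

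Some of the others were more uneven between the libraries. At 7p14.1 (chromosome 7, 40957911 to 40959351) the percentiles were 87.5, 95.9 and 77.9, and at 5p13.3 (chromosome 5, 31364700 to 31366528) they were 92.6, 92.3 and 78.0. At 14q31.1 (chromosome 14, 81441935 to 81443330) they were 83.1, 83.9 and 85.5, among the closest sets. The region at 3p12.3 (chromosome 3, 78307582 to 78308660), with 81.0, 88.4 and 83.2, lay 247 kb from the nearest peak of any other list.

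Among the 20 regions, 5 were on chromosome 2: besides 2p14 and 2q36.1, these were at 2p24.2 (chromosome 2, 18526817 to 18527963), 2p15 (chromosome 2, 64054515 to 64055518) and a second position in 2p14 (chromosome 2, 65250857 to 65252222). The 20 regions lay in 19 bands, measured 1004 to 1829 bp, all above the upper quartile of the class (1003 bp), and had a median distance of 16.5 kb to the nearest peak of another list. In 5 of them such a peak lay within 10 kb.

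**Figure D3:**
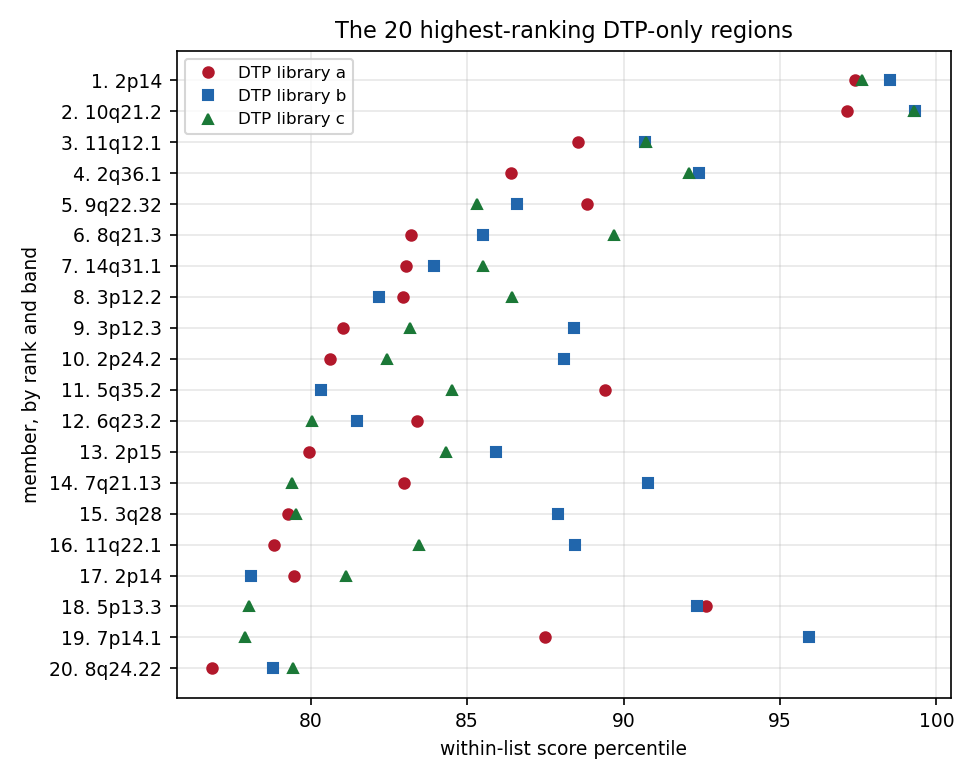
Within-list score percentile (x axis) of the 20 DTP-only regions with the highest percentile in their weakest DTP library, by rank and band (y axis), with 1 symbol per DTP library. The first 2 regions, at 2p14 and 10q21.2, stand above percentile 97 in all 3 libraries, and the weakest value of the 20 is 76.8.

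At the other end were regions at the calling floor in all 3 DTP lists. The lowest was at 2p24.1 (chromosome 2, 20813168 to 20814644), with percentiles of 6.07, 2.11 and 1.5 and a PC9 peak 0.56 kb away. Those at 4p16.1 (chromosome 4, 10175675 to 10176488), 1p36.33 (chromosome 1, 2189648 to 2190275), 17p13.2 (chromosome 17, 5158401 to 5159065) and 16q22.1 (chromosome 16, 70424458 to 70425219) did not exceed percentile 7.69 in any DTP list. The widest DTP-only region measured 2396 bp, at 19q11 (chromosome 19, 28349470 to 28351865). Its band is centromeric, and its percentiles were 76.6, 61.1 and 77.9. The next were at 2p16.3 (1961 bp; chromosome 2, 48920122 to 48922082), 5p13.3 (1829 bp), 1p31.1 (1789 bp; chromosome 1, 78297422 to 78299210) and 6q16.3 (1768 bp; chromosome 6, 104634417 to 104636184). The region at 2p16.3 had percentiles of 52.2, 29.4 and 12.1, while that at 5p13.3 was also among the 20 highest-ranking.

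Of the 1861 DTP-only regions, 1401 (75.3%) had no other DTP-only region within 100 kb. The other 460 (24.7%) formed runs, of which 179 were pairs, 23 triplets, 7 runs of 4 and 1 a run of 5. The share standing alone depends on the size of the class. It was 70.9% of 2718 regions without DTP library a and 83.6% of 841 in lists of equal size. Whether DTP-only regions cluster more or less than other regions was not tested. The run of 5 was at 10q21.2 (chromosome 10, 64288149 to 64441852) and included the second-ranking region. The other 4 of its regions were far weaker, with percentiles between 1.75 and 67.2. The 154 kb of the run held 3 further regions, 1 of them also gained in DTP over PC9 and none held by all 18 libraries.

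The most compact run of 4 spanned 71.7 kb at 5q12.3 (chromosome 5, 66254956 to 66326692), where 2 of 4 further regions were held by all 18 libraries. The run at 12p13.33 (chromosome 12, 1459228 to 1567773) spanned 109 kb and held no region of any other kind. Its 4 regions had percentiles from 22.4 to 80.6, and at the outer 2 no DTP list fell under percentile 58.5. The run at 10q23.1 (chromosome 10, 86050890 to 86229942) had a strong region at chromosome 10, 86184281 to 86185056, with percentiles of 75.3, 86.7 and 79.6, among 3 weaker ones. The run at 1p13.3 (chromosome 1, 108190328 to 108360566) held 1 region that was above percentile 60 in DTP b and c (70.1 and 68.4) and at 38.7 in DTP a.

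DTP-only regions lay on every chromosome analysed. They were 2.34% of all regions, with the highest shares on chromosome 8 (125 of 3639 regions, 3.44%, 95% Wilson interval 2.89 to 4.08) and chromosome 13 (73 of 2145, 3.4%, interval 2.72 to 4.26). The lowest were on chromosome 21 (8 of 837, 0.956%, interval 0.485 to 1.87), chromosome 22 (13 of 1279, 1.02%, interval 0.595 to 1.73) and chromosome 19 (25 of 2320, 1.08%, interval 0.731 to 1.59). Chromosome 17 also had a low share (39 of 2723, 1.43%), while chromosome 2 had the most regions (213 of 7357, 2.90%). The intervals cover counting error only, and neighbouring regions are not independent. Chromosome 19 is known for its gene density and chromosome 13 for its gene deserts, but a relation of the shares to gene density was not tested.

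Within the regions gained in DTP over PC9, the DTP-only share was between 22.9% (chromosome 21) and 49.2% (chromosome 8). On chromosome 19 it was 23.6%, against 41.9% over all chromosomes. Of the 106 regions gained on chromosome 19, 81 were therefore also called in sorted cells.

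**Figure D4:**
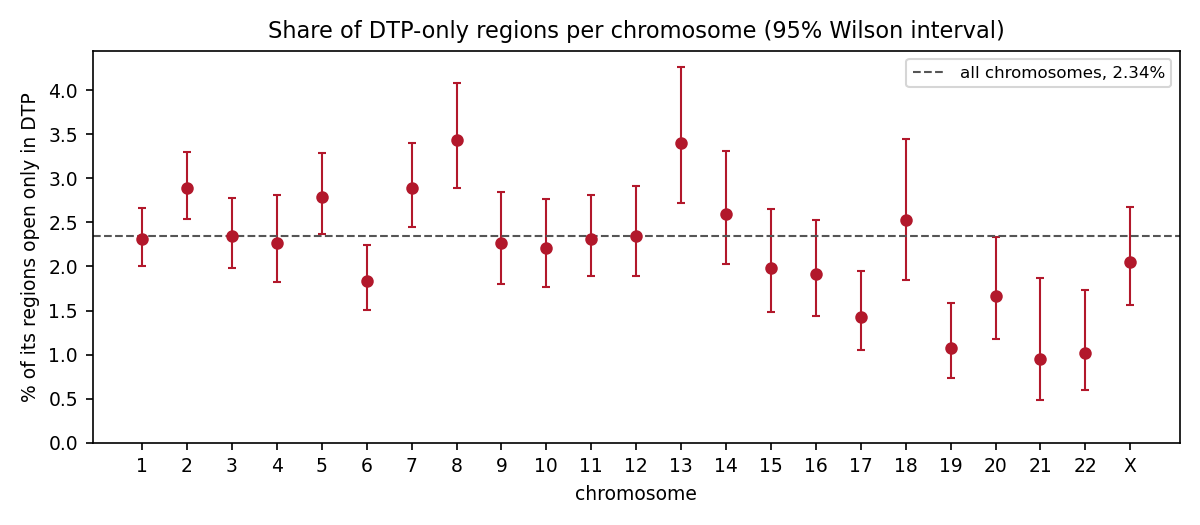
DTP-only regions as a percentage of all regions of a chromosome (y axis), with 95% Wilson intervals, for chromosomes 1 to 22 and X (x axis). The whole intervals of chromosomes 2, 5, 7, 8 and 13 lie above the dashed line of 2.34%, and those of chromosomes 6, 17, 19, 20, 21 and 22 below it.

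By band, the DTP-only regions were spread over 619 of the 812 bands that held any region, and 9 bands had 10 or more. The bands named here were chosen after their values were seen. The most were at 1p31.1 (13 of 350 regions), followed by 7p14.1 (11 of 155), 2q36.1 (11 of 182), 5q11.2 (11 of 253) and 2q35 (11 of 305). At 8q24.12 they were 10 of 129 regions (7.75%), at 2q22.1 9 of 89 (10.1%) and at 13q12.12 8 of 65 (12.3%).

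Giemsa-dark bands, the AT-rich and gene-poor parts of a chromosome (the 2 darkest stain classes), held 491 DTP-only regions, or 26.4% (interval 24.4 to 28.4). The share was 20.9% in the 320 regions shared with all sorted erlotinib libraries (interval 16.8 to 25.7), 25.1% in all 4446 regions gained in DTP over PC9 (which include the DTP-only ones), 17.3% in regions held by all 18 libraries and 21.7% over all regions. Dark bands make up 29.8% of these chromosomes. The intervals of the DTP-only regions and of the 320 overlapped, which does not show that the shares are alike. These intervals cover counting error only, and the difference was not tested. The median percentile in the weakest DTP library was 21.95 in dark and 21.5 in Giemsa-negative bands.

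DTP-only regions lay farther from chromatin that was open in every library than the other classes measured here. Distances were not taken for all regions or for those held by PC9 libraries alone. Of the DTP-only regions, 64.5% had a region held by all 18 libraries within 100 kb. The nearest region held by all 18 libraries was a median of 61.5 kb away, against 41.5 kb for regions shared with all sorted erlotinib libraries and 52.5 kb for all regions gained in DTP over PC9. For regions held by all 18 libraries themselves, the median distance to the next such region was 35.8 kb. Such a region lay within 10 kb of 10.3% of DTP-only regions and of 18.1% of those shared with the sorted erlotinib libraries. In dark bands the median distance from a DTP-only region was 97.8 kb, and in Giemsa-negative bands 50.8 kb.

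Few DTP-only regions had a foreign peak just beyond their edges. A peak of another list lay within 500 bp in 38 DTP-only regions, within 1 kb in 93 and within 10 kb in 790, and the median distance was 12.2 kb. Requiring peaks to cover at least 50% of a region left 1799 of the 1861 regions in the class. Matching the lists' length changed the class far more. When each list was cut to its 26225 best-scoring peaks, the length of the shortest, 841 regions met the rule. Of these, 384 were among the 1861 (45.7% of the 841 and 20.6% of the 1861), and the other 1477 lost a peak in at least 1 shortened DTP list. At a score of at least 100 there were 1286, of which 709 were among the 1861.

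Peaks around DTP-only regions were not themselves part of the rule, and they were compared between sorted libraries. The comparison may still depend on the rule, because DTP-only regions had to be absent from all 12 sorted lists. This filter acted unequally: of the 886 regions with 1 other library, a sorted erlotinib library kept out 531 and a sorted DMSO library 64. How far it shaped the neighbouring peaks was not tested, and the p-values below carry this limit. For each library, the share of the 1861 regions with a peak of another region within 10 kb was taken in lists of equal size. The cut to 26225 peaks was itself unequal. It shortened erlotinib lists of up to 40710 peaks and left ALDH-low DMSO lists, of at most 26438 peaks, nearly whole. What this did to the shares was not tested. After erlotinib it was 18.3%, 17.7% and 17.6% in ALDH-low libraries a, b and c, against 17.6%, 18.1% and 18.3% under DMSO. In ALDH-high libraries it was 18.3%, 18.2% and 17.9% after erlotinib, against 18.5%, 18.6% and 19.1% under DMSO. The treatments overlapped in ALDH-low cells, and in ALDH-high cells all 3 erlotinib libraries were below all 3 DMSO libraries.

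Over both fractions the erlotinib share was lower than the DMSO share by a difference of −0.349 points, which did not pass the test (exact two-sided permutation within fractions, p = 0.13, adjusted over 3 tests 0.195; smallest possible p 0.005). ALDH-high libraries exceeded ALDH-low libraries by 0.493 points (exact permutation p = 0.035, adjusted 0.105). The effect of erlotinib did not differ detectably between the fractions (−0.519 points, exact permutation p = 0.325). Without ALDH-low erlotinib library a, the treatment difference was −0.457 points (exact permutation p = 0.03, adjusted 0.045) and the fraction difference 0.600 points (exact permutation p = 0.01, adjusted 0.03). With any other sorted library left out, neither difference passed. The adjusted exact permutation p-values were then 0.09 to 0.285 for treatment and 0.09 to 0.225 for fraction. In the lists as deposited, where erlotinib lists are longer, the treatment difference turned to 5.36 points in favour of erlotinib (exact permutation p = 0.005, adjusted 0.015).

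Among the distances tried, the erlotinib difference passed adjustment within 50 kb and not within 5 or 25 kb (−0.233 and −0.439 points, exact permutation, adjusted p = 0.48 and 0.292). The difference between fractions passed within 25 and 50 kb and not within 5 kb (0.161 points, exact permutation, adjusted p = 0.48). Within 50 kb, the share was 59.2% ± 0.203 in ALDH-low erlotinib and 60.2% ± 0.468 in ALDH-low DMSO libraries (mean ± SD, n = 3 each). In ALDH-high cells it was 60.1% ± 0.777 after erlotinib and 61.5% ± 0.469 under DMSO. The difference within 50 kb was −1.18 points for erlotinib against DMSO (exact permutation p = 0.01, adjusted 0.015) and 1.09 points for ALDH-high against ALDH-low (exact permutation p = 0.005, adjusted 0.015). In the lists as deposited, the mean share within 50 kb was instead higher after erlotinib. It was 69.9% against 60.3% under DMSO in ALDH-low cells, and 71.8% against 66.6% in ALDH-high cells. The sign of the erlotinib difference thus depended on how the lists were cut.

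In the DTP libraries themselves, neighbours of DTP-only regions were more frequent than in PC9 within 50 kb and less frequent within 5 kb. The share within 50 kb, leaving out the region itself, was 65.8%, 66.6% and 66.2% in DTP a, b and c, against 61.9%, 61.2% and 61.6% in PC9, and the groups did not overlap. Around regions held by all 18 libraries it was 78.2% ± 0.172 in DTP and 78.4% ± 0.00410 in PC9 (SD, n = 3 each). Within 10 kb of DTP-only regions, DTP had 19.5% ± 0.802 and PC9 19.3% ± 0.469, which overlapped. Within 5 kb it was 5.86%, 5.32% and 5.00% in DTP a, b and c, against 7.85%, 7.52% and 7.09% in PC9, with no overlap and DTP the lower. Around regions held by all 18 libraries the share within 5 kb was also lower, at 8.40% ± 0.156 in DTP and 9.18% ± 0.0320 in PC9 (SD, n = 3 each). DTP and PC9 libraries defined the class, and other DTP-only regions count among these neighbours, so no test is given.

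**Figure D5:**
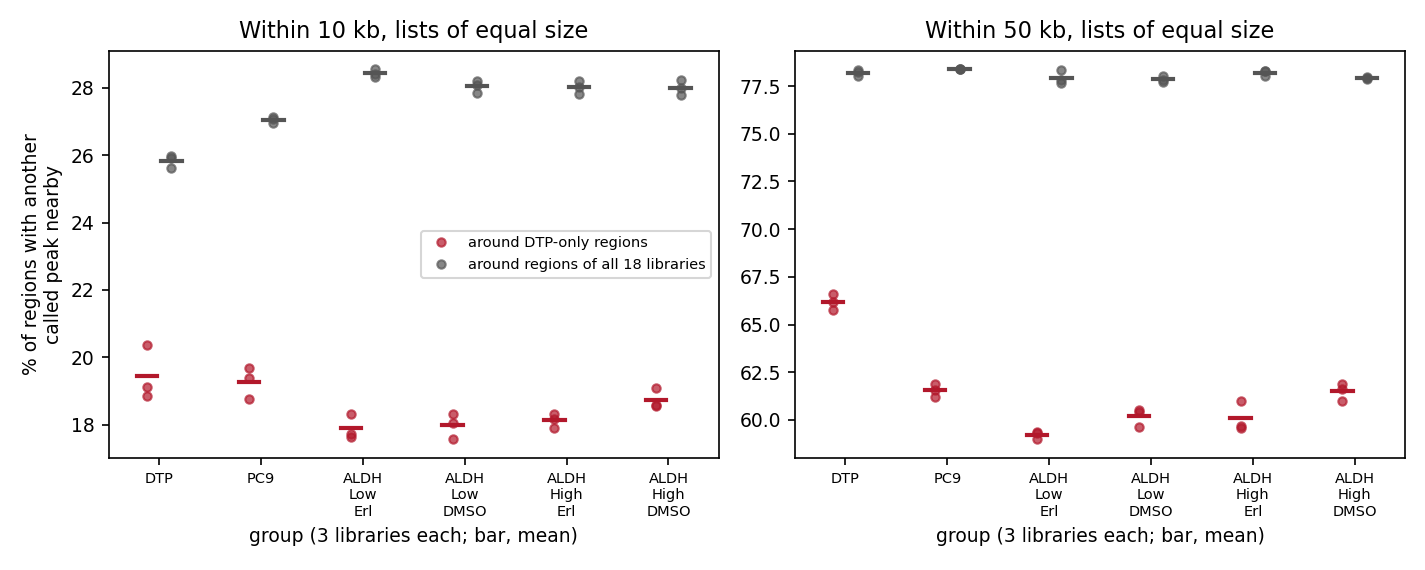
Percentage of regions with another called peak within 10 kb (left) or 50 kb (right) in each library (points; bars are means of 3 libraries) in lists of equal size, around DTP-only regions (red) and regions held by all 18 libraries (grey); the y axes do not start at 0. Within 50 kb of DTP-only regions the DTP libraries (65.8 to 66.6%) lie above all others, and each erlotinib mean lies below its DMSO mean. Other DTP-only regions count among the neighbours, and by the rule only DTP libraries hold them.

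The neighbours of DTP-only regions had close to the background share of changed regions. Of 5450 other regions within 50 kb that were called in DTP or PC9, 245 (4.5%) were gained in DTP over PC9, against 4.04% of all regions outside the class, and 216 (3.96%) were lost, against 3.79%. Of 5232 such neighbours called in sorted cells, 85 (1.62%) were gained at 12 h in both fractions, against 1.55% of all regions called in sorted cells.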

How the data were processed

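Open chromatin was profiled by ATAC-seq in 18 libraries of PC9. Per the submitters' processing notes, BWA, MACS 1.4.2 and the hg19 build were used; the role of each, its parameters, read shifting, duplicate removal and filters are not stated there. Peaks were called per library, 1 deposited list each. The deposited score of each peak is the authors' own, on a scale not stated, and served only for ranks and minima within a list. Between 3 and 7 peaks per library on other sequences were left out. Regions were merged in Python 3.11.15 with numpy 2.4.6 and pandas 2.3.3; Wilson intervals used scipy 1.17.1. Bands of hg19, assigned by a region's midpoint, came from the R package circlize 0.4.16.

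Named regions were the 20 with the highest percentile in their weakest DTP library, the 5 largest runs (gaps under 100 kb), the 5 widest and the 5 with the lowest percentile in their strongest DTP library. The class, and what was examined in it, were chosen with earlier results of these data known. Flank shares were tested by exact two-sided permutation of labels within strata (400 assignments), with Benjamini-Hochberg adjustment over 3 tests and a threshold of 0.05. The procedure was tested on simulated data in which planted DTP-only regions were drawn at random, so the effect of the selection was not covered. Alternatives were a score of at least 100, 50% coverage, lists of equal size or as deposited, distances of 5, 25 and 50 kb, the difference from regions held by all 18, each library left out, and a replicate block.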

Additional observations from a re-analysis of the deposited data

How the results depend on the processing

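The number of DTP-only regions stayed within 1.5 times of 1861 in 20 of 21 alternatives and was 841 in lists of equal size. Most alternatives left out 1 library, which can only relax the rule, so all 1861 regions stayed in by construction. The number then ranged from 1864 to 2718, highest without DTP library a, where 2 DTP libraries suffice. A similar number need not mean the same regions. A score of at least 100 kept 38.1% of the 1861, and lists of equal size kept 20.6%. In lists of equal size the median width was 1014 bp, the median percentile in the weakest DTP library 52.6 and the share standing alone 83.6%; at a score of at least 100 they were 974 bp, 42.6 and 82.7%. Both settings take away low-scoring peaks. Without 1 DTP library the ranges were 828 to 846 bp, 20.4 to 21.4 and 70.9 to 71.9%. The share in dark bands moved by less than its counting interval in all 5 alternatives run.

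The difference between erlotinib and DMSO in the share of DTP-only regions with a neighbour within 10 kb (−0.349 points) turned to 5.36 in lists as deposited and to 4.66 at a score of at least 100, settings that leave erlotinib lists longer. It was −1.18 points within 50 kb and −0.552 after subtracting the share around regions held by all 18 libraries (exact permutation p = 0.01, adjusted 0.015, for each), −0.233 within 5 kb and −0.439 within 25 kb (adjusted 0.48 and 0.292), and −0.457 to −0.264 with 1 library left out. ALDH-high against ALDH-low was 1.12 points within 25 kb, 1.09 within 50 kb and 0.719 after that subtraction (exact permutation p = 0.005, adjusted 0.015, for each). It did not pass within 5 kb (0.161, adjusted 0.48), in lists as deposited (2.62, adjusted 0.0675) or at a score of at least 100 (2.36, adjusted 0.09), and was 0.390 to 0.600 with 1 library left out. With 1 library left out, either difference passed adjustment only without ALDH-low erlotinib library a. Why the calls depend on distance and subtraction was not tested, nor was the part of the class rule in these differences. The difference of the erlotinib effects kept its sign and failed the test in all 20 alternatives.

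Libraries with the same letter had correlations of deviations of −0.0102 to 0.0125 in 45 pairs. Those with different letters had −0.0185 to 0.0228 in 90 pairs. Whether libraries of a letter were prepared together cannot be told from these values, and the letters serve here as names only. With the replicate block the differences of −0.349, 0.493 and −0.519 points had exact permutation p-values of 0.281, 0.0625 and 0.312, where the smallest possible is 0.0312 (adjusted 0.0938 where 1 of the 3 tests reaches it), so these values say little about stability. The block within 50 kb, added after seeing the data, gave p = 0.0625 for −1.18 points and 0.0312 for 1.09 (exact permutation, adjusted 0.0938 for both). Depth is unknown, which limits any statement about absence from a list.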

Other observations

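The counterpart of the DTP-only regions, 408 regions held by the 3 PC9 libraries alone, was also weak and narrow. DTP-only regions had a median width of 877 bp and a median percentile of 21.2 in the weakest DTP library, against 786 bp and 11.1 in the weakest PC9 library for the 408. Their shares in dark bands were 26.4% for DTP-only and 22.8% for PC9-only regions. The 6 unsorted libraries (DTP and PC9) together held 115 regions that no sorted library held, of which 29.6% lay in dark bands. The DTP-only region farthest from any peak of the other 15 lists, chosen after its values were seen, was at 8q13.2 (chromosome 8, 69611315 to 69612283). The nearest such peak was 944 kb away, and its percentiles in DTP a, b and c were 39.4, 52.2 and 19.0. In all, 20 DTP-only regions lay more than 200 kb from any peak of the other lists.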
